A study of Gallus gallus with 24 samples.

Results

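PITX1, TBX1, TBX15, ZIC1, ZIC4, MEIS1 and SIM2 are transcription factors, outside the HOX family, that embryos use to tell one limb or body region from another. They were taken by gene symbol from a table of 20780 chicken genes, in which each of the 7 symbols stands on 1 row. The table gives FPKM, a unit of expression in which transcript length and library size are divided out, so that levels of different genes can be set side by side. The muscles were a breast muscle that moves the wing, the pectoralis major (PEM), and a muscle of the lower leg, the soleus (SOL).

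All birds were Guangyuan Grey hens, a chicken breed, 210 days old and fasted for 12 h before sampling. The control groups (CONT) ate a normal diet, the SHFD groups a high-fat diet for 15 days and the LHFD groups a high-fat diet for 60 days. PEM and SOL were dissected from the same birds, and each of the 6 groups of muscle and diet holds 4 libraries, 24 in all. A list deposited with the data names 30 libraries, but values were given for 24. The labels do not tie libraries to birds, so the p-values reflect no more than the scatter among the libraries of a group. The experiment began with 270 hens at 150 days of age, and 9 birds were selected per diet. The samples are tissue blocks, from the ventral side of PEM and the widest part of SOL, and in such bulk RNA fewer cells of a type and less RNA per cell cannot be told apart.

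In the embryo, PITX1 acts with the T-box factor TBX4 to give the leg its identity, while TBX5 does so in the wing. TBX1 shapes the pharyngeal arches and the head muscles, TBX15 acts in the skeleton and the skin and, in mouse muscle, is most abundant in fast glycolytic fibres. ZIC1 and ZIC4 are zinc finger factors of the dorsal neural tube and the dorsal somites, MEIS1 is a homeodomain partner of HOX proteins that marks the near end of the limb bud, and SIM2 is a bHLH-PAS factor that, in chick and mouse limbs, marks the ventral muscle mass and represses MYOD.

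The libraries summed to between 474667 and 525731 FPKM, and the depth behind them is unknown. In SOL, 13 markers of slow fibres summed to between 7881 and 38726 FPKM, against 1977 to 4536 in PEM, and the fast fibre markers summed to between 4580 and 26286 in SOL against 42692 to 56305 in PEM, so the fibre markers matched the muscle labels in every library. CONT_PEM 2, the library numbered 2 of that group, and LHFD_PEM 1 stood apart by macrophage markers, which summed to 652 and 388 FPKM against 103 to 160.0 in the other 10 PEM libraries.

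Under CONT every member differed between the muscles, and the direction was split. PITX1, ZIC1, ZIC4 and TBX1 averaged 1.85 to 2.70 FPKM over the 12 SOL libraries. In PEM, PITX1, ZIC1 and ZIC4 were at or near 0, and TBX1 was low but above 0. SIM2 was abundant in PEM and nearly absent from SOL. MEIS1 was several-fold higher in PEM, and TBX15 was abundant in both muscles and higher in SOL. Values below are in FPKM, with means ± SD over 4 libraries, and differences are SOL minus PEM in log2(FPKM + 1), a scale that compresses changes of weakly expressed genes. Called means that limma's p, adjusted over all genes, was under 0.05. Under CONT, 5 members were called higher and 2 lower in SOL, where 50.7% of all 10944 genes tested were called in one direction or the other. Under SHFD the count was 4 higher and 2 lower, with 51.6% of genes called, and under LHFD 5 higher and 2 lower, with 43.8% called.

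All 7 members passed the filter of at least 1 FPKM in at least 4 libraries, but they did so in different ways. PITX1, TBX1, ZIC1 and ZIC4 reached 1 FPKM in SOL libraries and in 0 of the 12 PEM libraries, and SIM2 reached it in PEM and in 0 of the 12 SOL libraries. Such genes could pass only through the muscle in which they are high, so their count is no evidence about the set. TBX15 and MEIS1 reached 1 FPKM in all 24 libraries.

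**Figure D1:**
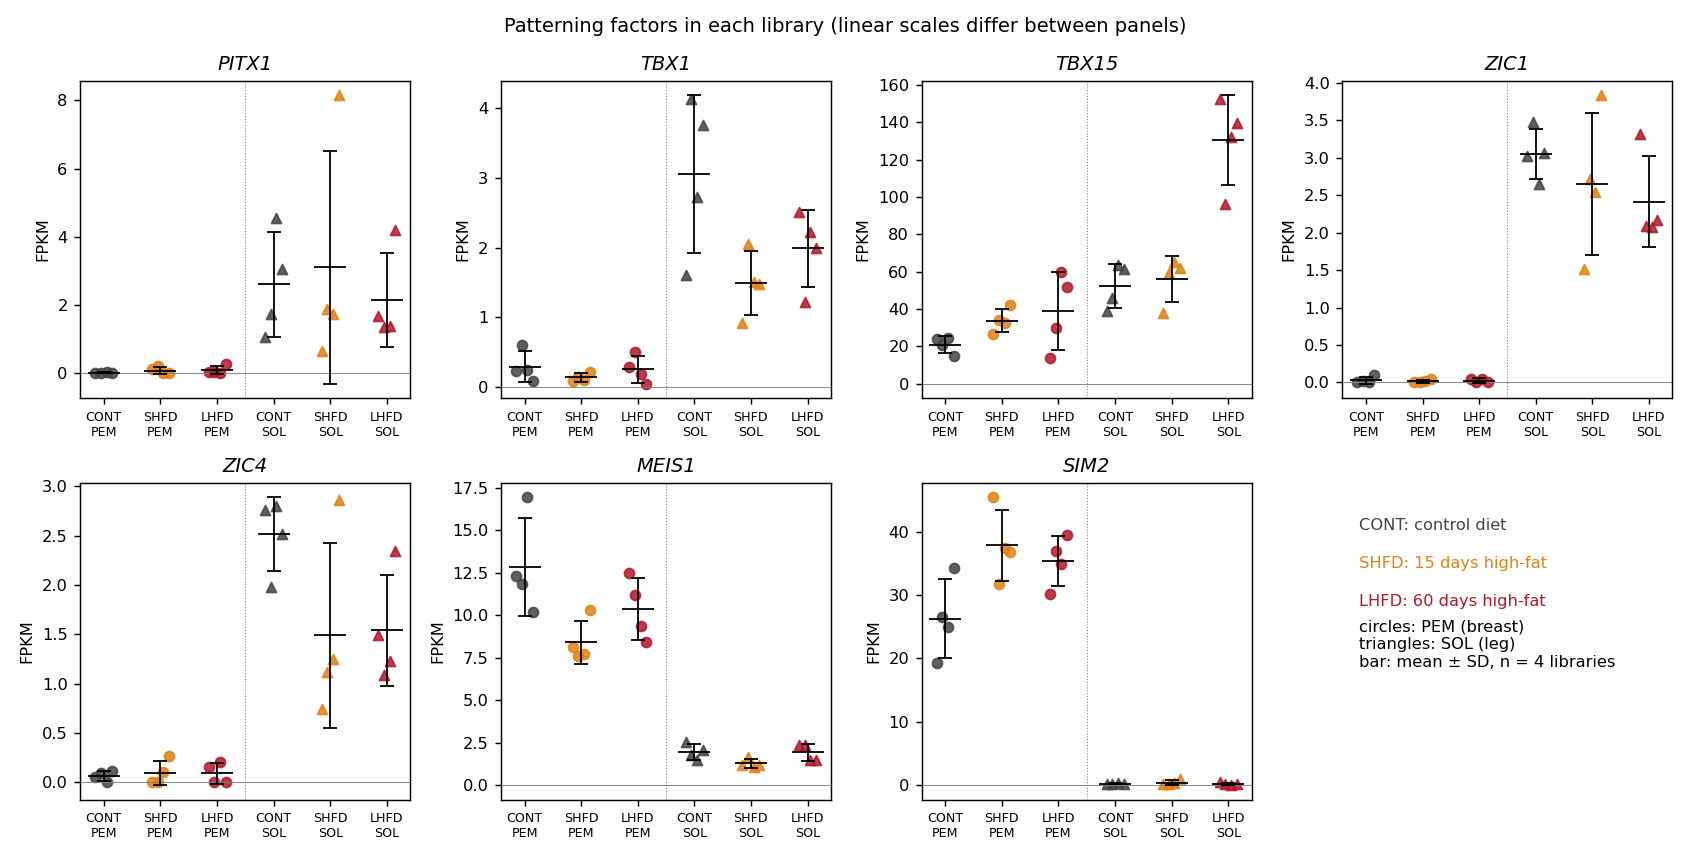
Level of each factor in FPKM (vertical axes, linear, scaled to each gene) in the 24 libraries, grouped by diet and muscle (horizontal axes). Points are libraries and bars are the mean ± SD of 4. PITX1, ZIC1 and ZIC4 lie close to 0 in PEM, and TBX1 is low there. SIM2 lies close to 0 in SOL, and TBX15 reaches its highest values, 96.4 to 153, in LHFD_SOL.

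PITX1 (ENSGALG00000030237), the leg identity factor, was the most variable of the 5 members that were higher in SOL. Under CONT the SOL libraries held 1.05, 1.73, 4.56 and 3.06 FPKM, and the PEM libraries 0.0223, 0, 0.0412 and 0. Under SHFD the SOL values were 0.648, 1.89, 1.73 and 8.14 against 0.123, 0.204, 0 and 0 in PEM. Under LHFD they were 1.67, 1.35, 1.39 and 4.19 against 0.0497, 0.0431, 0 and 0.271. The muscles did not overlap under any diet, PITX1 was listed at 0 in 5 of 12 PEM libraries, and SHFD_SOL 4 and LHFD_SOL 4 stood far above the rest of their groups. The differences were 1.72 (95% confidence interval 0.97 to 2.48, adjusted p = 0.000476) under CONT, 1.61 (0.86 to 2.37, adjusted p = 0.000888) under SHFD and 1.45 (0.70 to 2.20, adjusted p = 0.00272) under LHFD. Their size depends on the constant added before the logarithm, since with 0.1 in place of 1 they were 4.37, 3.75 and 3.58.

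PITX1 acts upstream of TBX4, and the limb field T-box genes TBX4 and TBX5 were therefore read as well, although both lay under the expression filter. TBX4, the leg factor, held 0.157 to 0.691 FPKM in the 12 SOL libraries and at most 0.0492 in PEM, where 6 libraries listed it at 0. TBX5, the wing factor, held 0.0669 to 0.291 FPKM in the PEM libraries and at most 0.0179 in SOL, where 10 listed it at 0. The muscles did not overlap for either gene. In a fit with no filter, over 20556 genes, TBX4 was higher in SOL by 0.53, 0.33 and 0.48 under CONT, SHFD and LHFD (adjusted p = 3.29e-06, 0.000641 and 1.68e-05), and TBX5 was lower there, at -0.24, -0.17 and -0.21 (adjusted p = 0.000189, 0.00423 and 0.00118). EN1, a limb patterning factor also under the filter, was read in the same fit. It was at 0.68, 0.77 and 0.26 (adjusted p = 0.0731, 0.0417 and 0.583), so it was called under SHFD alone. EN1 held 0.0356 to 3.33 FPKM in the SOL libraries and at most 0.125 in PEM, so the muscles overlapped. In SOL it was 1.08 ± 1.53 under SHFD, with an SD above the mean, and 0.703 ± 0.355 under CONT. The call is thus not shown to be particular to SHFD. This reading of genes under the filter was chosen after their values were seen.

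The zinc finger factors ZIC1 (ENSGALG00000040532) and ZIC4 (ENSGALG00000006810) also reached 1 FPKM in SOL libraries alone. For ZIC1 the CONT_SOL libraries held 3.02, 3.47, 2.64 and 3.06 FPKM, the SHFD_SOL libraries 1.52, 2.72, 2.55 and 3.83, and the LHFD_SOL libraries 3.32, 2.09, 2.08 and 2.17. The 12 PEM libraries held at most 0.0967, and 6 of them listed ZIC1 at 0, so the muscles were far from overlapping. ZIC1 was the steadiest of the 4 factors found in SOL, and its differences were 1.97 (1.68 to 2.27, adjusted p = 4.08e-10), 1.81 (1.51 to 2.11, adjusted p = 1.69e-09) and 1.72 (1.42 to 2.02, adjusted p = 4.05e-09) under CONT, SHFD and LHFD.

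For ZIC4 the SOL libraries held 2.76, 1.98, 2.80 and 2.52 FPKM under CONT, 0.741, 1.11, 1.25 and 2.86 under SHFD, and 1.49, 1.09, 1.23 and 2.35 under LHFD. In PEM it held at most 0.260, with 5 libraries at 0, again with no overlap between muscles. The differences were 1.72 (1.34 to 2.10, adjusted p = 1.22e-07), 1.13 (0.75 to 1.51, adjusted p = 2.82e-05) and 1.20 (0.82 to 1.58, adjusted p = 1.93e-05). ZIC1 and ZIC4 are neighbours in the RefSeq annotation of the chicken assembly GRCg7b. AGTR1, an angiotensin receptor gene on the other side of ZIC1, held 1.37 to 7.96 FPKM in PEM and 1.43 to 4.45 in SOL and was not called between muscles under any diet.

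TBX1 (ENSGALG00000041182), the T-box factor of the pharyngeal arches, held 1.61, 4.12, 2.73 and 3.75 FPKM in CONT_SOL, 0.922, 2.05, 1.51 and 1.48 in SHFD_SOL, and 2.52, 1.22, 2.23 and 1.99 in LHFD_SOL. In PEM it held 0.0888 to 0.612 under CONT, 0.0967 to 0.225 under SHFD and 0.0528 to 0.510 under LHFD. It was therefore low but above 0 in every PEM library, and the lowest SOL library stood above the highest PEM library. The mean in SOL was 10.4, 10.5 and 7.62 times that in PEM under CONT, SHFD and LHFD, and the differences were 1.62 (1.22 to 2.01, adjusted p = 5.65e-07), 1.11 (0.71 to 1.50, adjusted p = 6.14e-05) and 1.24 (0.84 to 1.63, adjusted p = 2.35e-05).

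TBX15 (ENSGALG00000014776) was the most abundant member in SOL. The CONT_PEM libraries held 23.7, 20.9, 24.2 and 14.7 FPKM and the CONT_SOL libraries 39.0, 45.7, 63.6 and 61.2. The SHFD_PEM libraries held 26.7, 34.2, 32.5 and 41.9 and the SHFD_SOL libraries 37.7, 59.4, 65.1 and 62.0. The LHFD_PEM libraries held 13.7, 29.9, 59.9 and 51.7 and the LHFD_SOL libraries 153, 96.4, 132 and 139.9. The muscles were apart under CONT and LHFD, and overlapped under SHFD, where SHFD_SOL 1 lay below SHFD_PEM 4. SOL was higher by 1.28 (0.63 to 1.93, adjusted p = 0.0018) under CONT, a 2.51-fold ratio of means, and by 1.90 (1.25 to 2.55, adjusted p = 4.95e-05) under LHFD, a 3.36-fold ratio.

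Under SHFD the TBX15 difference of 0.70 (0.05 to 1.35, adjusted p = 0.0655) was not called. It was called without SHFD_SOL 1, at 0.88 (adjusted p = 0.0338), and, with the difference itself unmoved, without LHFD_PEM 1 (adjusted p = 0.0144) or LHFD_PEM 3 (0.045). The last 2 libraries are not part of that comparison but enter the shared estimate of the spread, and TBX15 was lowest and highest in them among the PEM libraries. A fit of the 8 libraries compared alone called it as well (adjusted p = 0.0168), as did quantile normalization (0.0492) and a scaling that made the FPKM of nuclear genes sum to the same total in each library (0.0447).

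MEIS1 (ENSGALG00000041626), the HOX partner of the near end of the limb, was higher in breast muscle. The PEM libraries held 12.3, 11.8, 16.9 and 10.2 FPKM under CONT, 8.11, 7.58, 7.70 and 10.3 under SHFD, and 12.5, 11.2, 9.38 and 8.41 under LHFD. The SOL libraries held 2.55, 1.76, 1.49 and 2.06, then 1.22, 1.69, 1.07 and 1.17, and then 2.38, 2.39, 1.46 and 1.51. The lowest PEM library, at 7.58, stood well above the highest SOL library, at 2.55. SOL held 0.153, 0.153 and 0.187 times the PEM mean under CONT, SHFD and LHFD, and the differences were -2.21 (-2.54 to -1.88, adjusted p = 3.94e-10), -2.04 (-2.37 to -1.71, adjusted p = 1.49e-09) and -1.96 (-2.29 to -1.63, adjusted p = 3.09e-09).

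SIM2 (ENSGALG00000016044) had the widest gap of the members between the muscles in log2(FPKM + 1) under every diet. SOL held 0.00695, 0.00947 and 0.00557 times the PEM mean under CONT, SHFD and LHFD. By ratios of means SIM2 was widest under LHFD alone. PITX1, 164-fold higher in SOL under CONT, and ZIC1, 167-fold under SHFD, passed it there, and both lay near 0 in PEM. The PEM libraries held 19.2, 26.6, 25.0 and 34.3 FPKM under CONT, 45.5, 31.8, 37.4 and 36.8 under SHFD, and 30.2, 37.0, 35.0 and 39.5 under LHFD. The 12 SOL libraries held between 0.0191 and 0.980, with a median of 0.155, and the highest of them was SHFD_SOL 4. No SOL library came near any PEM library. The differences were -4.50 (-4.87 to -4.13, adjusted p = 1.91e-14) under CONT, -4.87 (-5.24 to -4.51, adjusted p = 4.14e-15) under SHFD and -4.93 (-5.30 to -4.56, adjusted p = 3.83e-15) under LHFD.

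As levels in FPKM over the 12 libraries of a muscle, SOL held TBX15 first, at 79.6 ± 40.5, and then ZIC1 at 2.70 ± 0.672, PITX1 at 2.62 ± 2.12, TBX1 at 2.18 ± 0.975, ZIC4 at 1.85 ± 0.780 and MEIS1 at 1.73 ± 0.506. Neighbours in the run from ZIC1 to MEIS1 lay within each other's SD. SIM2 came last, at 0.246 ± 0.258. In PEM, SIM2 at 33.2 ± 7.13 and TBX15 at 31.2 ± 14.1 did not differ beyond their spread. MEIS1 followed at 10.5 ± 2.67 and TBX1 at 0.232 ± 0.171, and the lowest were ZIC4 at 0.0813 ± 0.0896, PITX1 at 0.0628 ± 0.0900 and ZIC1 at 0.0236 ± 0.0313, with ranges that overlapped from 0 upward. Among all genes tested, the mean of TBX15 in SOL exceeded 94.1% of the genes and that of SIM2 in PEM 87.2%, whereas the means of PITX1, TBX1, ZIC1 and ZIC4 in SOL exceeded 26.5%, 21.9%, 27.2% and 17.8%.

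**Figure D2:**
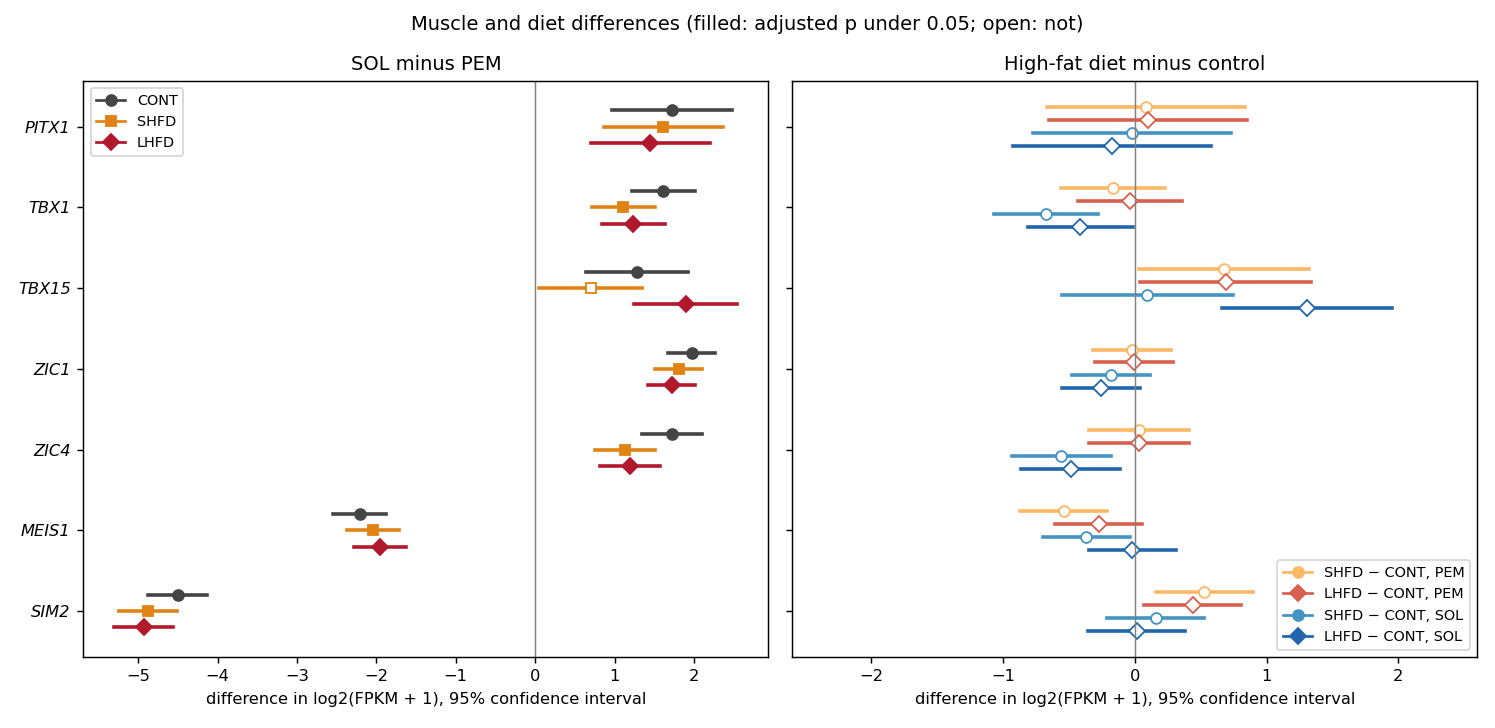
Differences in log2(FPKM + 1) with 95% confidence intervals (horizontal axes) for the 7 factors (vertical axis), SOL minus PEM within each diet on the left and high-fat minus control diet within each muscle on the right. Filled symbols are called and open symbols are not. On the left 20 of 21 symbols are filled, from -4.93 for SIM2 to 1.97 for ZIC1, and on the right 0 are.

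The diet comparisons ask whether 15 or 60 days of high-fat feeding changed these factors within a muscle. No member was called. In PEM, 1.07% of all genes tested were called in SHFD against CONT, 6.94% in LHFD against CONT and 0.201% in LHFD against SHFD. In SOL these shares were 0.557%, 0.521% and 0.886%. At these shares of called genes, 0 of 7 members is no result about the members. At an unadjusted p under 0.05, limma gave 1444, 2408 and 1229 genes in PEM and 1749, 1315 and 1230 in SOL, in the same order.

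TBX15 in SOL came closest. The LHFD_SOL libraries, at 96.4 to 153 FPKM, all lay above the CONT_SOL libraries, at 39.0 to 63.6, and the SHFD_SOL libraries, at 37.7 to 65.1. LHFD minus CONT was 1.31 (0.66 to 1.95, adjusted p = 0.0618) and LHFD minus SHFD was 1.21 (0.56 to 1.86, adjusted p = 0.0688). The means were 130.3 ± 24.1 under LHFD, 52.4 ± 11.9 under CONT and 56.1 ± 12.5 under SHFD, and SHFD minus CONT was 0.09 (-0.55 to 0.74, adjusted p = 0.913). These comparisons share libraries and are not independent of each other.

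The 2 TBX15 values for LHFD in SOL crossed the threshold in several other fits without moving. The adjusted p for LHFD minus CONT and LHFD minus SHFD was 0.00755 and 0.0114 without LHFD_PEM 1, 0.045 and 0.0491 without LHFD_PEM 3, and 0.0368 and 0.0498 with the 8 libraries compared alone. Over the 31 alternatives in all, the adjusted p ran from 0.00755 to 0.202 for the first and from 0.0114 to 0.253 for the second.

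In PEM, TBX15 was not called under either high-fat diet. The SHFD_PEM libraries, at 26.7 to 41.9, all lay above the CONT_PEM libraries, at 14.7 to 24.2, with a difference of 0.68 (0.03 to 1.32, adjusted p = 0.351). The LHFD_PEM libraries overlapped CONT_PEM because LHFD_PEM 1 held 13.7, and the difference was 0.69 (0.04 to 1.34, adjusted p = 0.196). Without LHFD_PEM 1 it was 1.10 and called (adjusted p = 0.0114). That library also had the highest fibroblast marker sum of PEM, 282 FPKM against 49.4 to 132 in the other LHFD_PEM libraries, and a macrophage marker sum of 388 against 111 to 160.0; the part of these cells in its TBX15 value was not tested.

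Another 4 members had differences in a diet comparison whose interval left out 0. MEIS1 in PEM was 8.42 ± 1.26 under SHFD against 12.8 ± 2.89 under CONT, a difference of -0.54 (-0.87 to -0.21, adjusted p = 0.107), with the groups overlapping at 10.2 and 10.3. SIM2 in PEM was 37.9 ± 5.68 under SHFD and 35.4 ± 3.96 under LHFD against 26.3 ± 6.24 under CONT, at 0.53 (0.16 to 0.90, adjusted p = 0.166) and 0.44 (0.07 to 0.81, adjusted p = 0.146). CONT_PEM 4, at 34.3, lay within both high-fat groups.

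In SOL, TBX1 was 1.49 ± 0.462 under SHFD against 3.05 ± 1.13 under CONT, at -0.67 (-1.07 to -0.28, adjusted p = 0.0853). The groups overlapped through CONT_SOL 1, and without that library the difference was -0.87 and called (adjusted p = 0.049). Leaving out each library in turn gave -0.87 to -0.55 (adjusted p from 0.049 to 0.296). ZIC4 was 1.49 ± 0.939 under SHFD against 2.51 ± 0.377 under CONT, at -0.56 (-0.93 to -0.18, adjusted p = 0.129). Here SHFD_SOL 4 held 2.86 against 0.741 to 1.25 in its group, and without it the difference was -0.79 and called (adjusted p = 0.0137). Leaving out each library in turn gave -0.79 to -0.41 (adjusted p from 0.0137 to 0.425). SHFD_SOL 1 was the lowest SOL library for PITX1, TBX1, TBX15, ZIC1 and ZIC4. Its smooth muscle and pericyte markers summed to 1033 FPKM, against 179 to 549 in the other SOL libraries. Its fibroblast and macrophage sums, 70.8 and 179, were the lowest of SOL. The part of these cells was not tested. Under LHFD, ZIC4 was at -0.49 (-0.86 to -0.11, adjusted p = 0.261) and TBX1 at -0.41 (-0.81 to -0.02, adjusted p = 0.386). MEIS1 in SOL was at -0.37 (-0.70 to -0.04, adjusted p = 0.25) for SHFD minus CONT and at 0.35 (0.02 to 0.68, adjusted p = 0.398) for LHFD minus SHFD. PITX1 and ZIC1 had intervals that held 0 in all 6 diet comparisons. For PITX1 in SOL these were -0.77 to 0.73 around -0.02 for SHFD and -0.93 to 0.58 around -0.18 for LHFD, too wide to show that the diets were alike. For ZIC1 in SOL they were narrower, -0.48 to 0.11 around -0.18 and -0.55 to 0.04 around -0.26.

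Whether a high-fat diet acted differently in the muscles was tested as the difference of the diet effects, SOL minus PEM. No member was called, where 0.00914% of all genes, a single gene, was called for SHFD and 0% for LHFD. At an unadjusted p under 0.05, limma gave 701 and 620 genes. The member farthest from 0 with an interval that left out 0 was ZIC4 for SHFD, at -0.59 (-1.12 to -0.05, adjusted p = 0.725). TBX15 was at -0.58 (-1.50 to 0.33, adjusted p = 0.896) for SHFD and 0.62 (-0.30 to 1.53, adjusted p = 0.999) for LHFD, so the data do not separate the LHFD response of TBX15 in SOL from that in PEM.

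SOL libraries differ in fibre content, and the 12 of them allowed the members to be set against the summed slow and fast fibre markers, a comparison chosen after seeing the data. PITX1 went with the slow fibre sum. SHFD_SOL 4, with a slow sum of 38726 FPKM and a fast sum of 4580, held the highest PITX1 value, 8.14, and CONT_SOL 3 and LHFD_SOL 4, with the next slow sums of 23205 and 24537, held the next values, 4.56 and 4.19. On log2 scales Pearson's r was 0.803 (permutation p = 0.00366, adjusted p = 0.0412 over 14 relations) and Spearman's rho 0.573 (permutation p = 0.0549, adjusted p = 0.286). With the diet means subtracted r was 0.840, and without SHFD_SOL 4 and LHFD_SOL 4 it was 0.503, so that the relation rests on those libraries. Against the fast sum r was -0.792 (permutation p = 0.00588, adjusted p = 0.0412) and rho -0.524 (permutation p = 0.0865, adjusted p = 0.303), and r was -0.339 without SHFD_SOL 4 and CONT_SOL 3.

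The relation of ZIC4 with the slow sum, at r 0.616 (permutation p = 0.031, adjusted p = 0.0942) and rho 0.559 (permutation p = 0.0612, adjusted p = 0.286), did not pass the correction. It was 0.833 with the diet means subtracted and 0.466 without SHFD_SOL 4 and LHFD_SOL 4. The other 11 relations of the 14 had adjusted p for r from 0.0511 to 0.711. Among them ZIC4 against the fast sum was at r -0.556 (permutation p = 0.011, adjusted p = 0.0511), and -0.871 with the diet means subtracted. SIM2, under 1 FPKM in SOL, was at r 0.675 (permutation p = 0.0336, adjusted p = 0.0942) with the slow sum. Against the fast sum SIM2 was at r -0.819 (permutation p = 0.0504, adjusted p = 0.118) and rho -0.224, and r was 0.219 without SHFD_SOL 4 and CONT_SOL 3. In all 12 SOL libraries PITX1, ZIC1 and ZIC4 stood above their highest PEM value. The lowest slow sum in SOL, 7881 FPKM in LHFD_SOL 3, was still above the highest in PEM, 4536. Muscle and fibre content therefore cannot be told apart in these libraries.

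**Figure D3:**
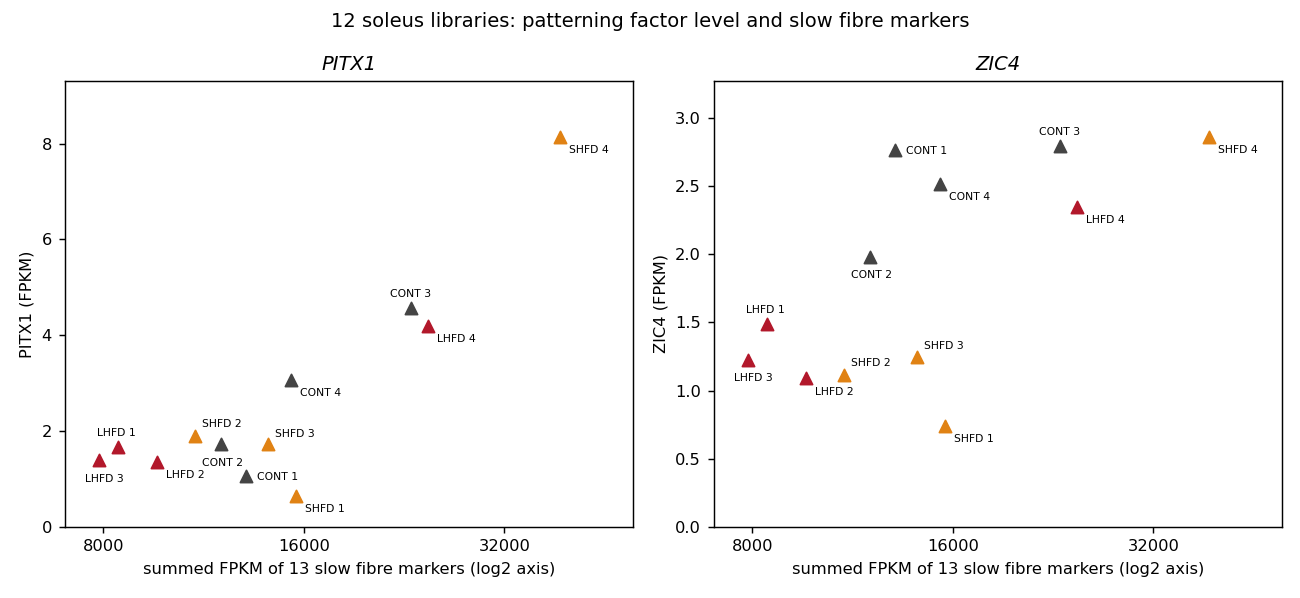
PITX1 (left) and ZIC4 (right) in FPKM (vertical axes) against the summed FPKM of 13 slow fibre markers (horizontal axes, log2 scale) in the 12 SOL libraries, coloured by diet and labelled by diet and replicate number. SHFD 4, at a slow sum of 38726, holds the highest value of both genes, 8.14 and 2.86, and the 8 libraries other than SHFD 4, LHFD 4, CONT 3 and CONT 4 hold at most 1.89 of PITX1.

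Markers of fibres and of other cell types also differed between the muscles beside these factors. Under CONT, 12 of 13 tested slow fibre markers were called higher in SOL and 1 lower, and of 7 fast fibre markers 1 was higher and 5 lower. Of the other cell types, 8 of 8 tested endothelial markers, 6 of 7 of smooth muscle and pericytes, 4 of 5 of adipocytes, 3 of 4 of Schwann cells and nerve, 3 of 3 of tendon and 2 of 9 of fibroblasts were called higher in SOL and 0 lower. Of satellite cell markers 1 was higher and 1 lower of 5, of macrophages 1 higher of 6, of lymphocytes 1 lower of 5, of red blood cells 0 of 4, and of skin and neural tube 0 could be tested. Among all genes tested, 30.7% were called higher in SOL under CONT and 20% lower. The counts for fibroblasts, satellite cells, macrophages, lymphocytes and red blood cells do not exceed these shares. Summed levels were 101 to 168 FPKM in SOL against 42.1 to 87.0 in PEM for endothelial cells, 179 to 1033 against 56.8 to 99.5 for smooth muscle, 83.5 to 179 against 21.7 to 93.9 for adipocytes and 70.8 to 184 against 49.4 to 282 for fibroblasts. They were 3.33 to 16.1 against 0.719 to 2.96 for tendon, 16.7 to 27.5 against 14.4 to 24.7 for satellite cells and 23.7 to 38.4 against 14.7 to 27.1 for Schwann cells and nerve. Macrophage markers summed to 179 to 427 in SOL against 103 to 652 in PEM, lymphocyte markers to 8.28 to 19.6 against 6.82 to 45.1, and red blood cell markers to 83.3 to 322 against 44.0 to 173. Skin and neural tube markers summed to at most 0.851 FPKM in any library. No listed marker was at 0 in every library, and the part of these cells in the muscle differences was not tested.

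Genes next to the members were read to show whether the muscle difference extended along the chromosome. By the RefSeq table of GRCg7b, the flanking genes were H2AFY and PCBD2 for PITX1, GP1BB and GNB1L for TBX1, SPRED2 and ETAA1 for MEIS1, and CLDN14 and HLCS for SIM2. The flanking genes of TBX15 and the outer neighbour of ZIC4 were not found by symbol among the genes with FPKM values. The neighbours of TBX1 were both higher in SOL on average: GP1BB, a platelet receptor gene under the filter and so not tested, held 0.357 to 0.792 FPKM in SOL against 0.124 to 0.443 in PEM, and GNB1L held 1.86 to 3.92 against 1.60 to 3.02. H2AFY, a histone variant gene, held 14.3 to 31.0 FPKM in PEM and 17.2 to 28.0 in SOL beside a PITX1 that was near 0 in PEM. HLCS, the holocarboxylase synthetase gene, held 2.13 to 3.81 in PEM and 1.63 to 4.56 in SOL beside a SIM2 that was nearly absent from SOL. Of 7 neighbours tested, GNB1L was called, higher in SOL at 0.51 (adjusted p = 0.00441) under CONT and 0.45 (adjusted p = 0.0139) under LHFD, and the other 6 were called under no diet. Among all genes tested, 50.7%, 51.6% and 43.8% were called between the muscles under CONT, SHFD and LHFD. With so few neighbours, the count does not settle whether the difference extended along the chromosome.

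By the rule of the highest Pearson r over the 24 libraries among 8407 named genes (8408 for ZIC4) with a mean of at least 1 FPKM, each member has 3 closest genes. They are given as a description, since the libraries fall into clusters by muscle and any gene with a large muscle difference scores high. For PITX1 they were CORO6 (0.969), CDC14B (0.968) and MTNR1B (0.962), for TBX1 GRAMD1B (0.945), IFT172 (0.943) and TMEM120A (0.942), and for TBX15 DOT1L (0.874), RBMS1 (0.868) and LMO7 (0.863). For ZIC1 they were the HOX genes HOXC11 (0.987) and HOXC10 (0.985) and the calcium channel gene CACNA1S (0.987). HOXC10 held 35.5 FPKM on average in SOL and 0.0375 in PEM, and HOXC11 was listed at 0 in PEM. For ZIC4 they were SLC12A5 (0.968), CLMN (0.967) and MTNR1B (0.967), for MEIS1 BPGM (0.977), DYRK3 (0.975) and UBE2Q2 (0.975), and for SIM2 STRBP (0.988), FRMD5 (0.988) and SH3KBP1 (0.981).

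With each muscle's mean subtracted, r fell for every member and mostly named other genes. PITX1 kept CORO6, a coronin gene, at 0.892 and MTNR1B, a melatonin receptor gene, at 0.885, followed by MTFR1L at 0.883, and ZIC4 kept CLMN at 0.792 behind CTPS2 at 0.871 and APCDD1L at 0.837. For TBX15 the closest were PDE7B at 0.823, SAMD8 at 0.800 and BHLHE40 at 0.799. The highest values were 0.774 for TBX1 (KLHL26), 0.754 for ZIC1 (CNOT10), 0.809 for MEIS1 (SAP130) and 0.800 for SIM2 (ARHGAP5).

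Other factors of limb and trunk patterning were described from 7 lists of 106 genes, of which 93 stand in the table and 28 passed the filter. Under CONT 10 of the 28 were called higher in SOL and 6 lower, and the median difference was 0.06 against 0.12 for all genes. Under SHFD the counts were 8 and 8 (median 0.06 against 0.04), and under LHFD they were 8 and 4 (median 0.11 against 0.14). These are to be read beside the 50.7%, 51.6% and 43.8% of all genes that were called. EN2, HAND2, BARX2 and DACH2, counted as higher under each diet, reached 1 FPKM in SOL alone. The counts of higher genes are therefore no evidence about the lists. The scaling bears on small differences, since the median of all genes under CONT was 0.12 as deposited, -0.07 after quantile normalization and 0.23 with equal sums of the nuclear genes.

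Of 5 T-box factors TBX2, a repressor of the limb margins and the heart, was the 1 called under CONT, at 1.45 ± 0.671 against 0.597 ± 0.218 (0.59, adjusted p = 0.00898), a call lost after quantile normalization (0.23, adjusted p = 0.289). TBX18, a factor of somites and vessel-associated cells, was at -0.35 (adjusted p = 0.374) and MGA, a MAX partner, at 0.18 (adjusted p = 0.38, and -0.03 after quantile normalization). TBX21, known from T cells, was at -0.57 (adjusted p = 0.123) and was called without CONT_SOL 2, at -0.79 (adjusted p = 0.0396), and after quantile normalization, at -0.73 (0.0479). The calls differed under the high-fat diets. TBX21 was lower in SOL under SHFD, at 2.99 ± 1.53 against 8.36 ± 3.87 (-1.23, adjusted p = 0.00199), and under LHFD, at 3.65 ± 0.954 against 8.77 ± 2.29 (-1.07, adjusted p = 0.00715), with no overlap between the muscles. TBX18 was lower in SOL under SHFD, at 15.1 ± 4.27 against 31.6 ± 1.64 (-1.07, adjusted p = 0.00752), and was at -0.08 under LHFD (adjusted p = 0.855). TBX2 was at 0.34 under SHFD (adjusted p = 0.112), and was called without SHFD_SOL 4 (0.46, adjusted p = 0.0444). Under LHFD it was called at 0.48 (adjusted p = 0.0343), a call lost after quantile normalization (0.19, adjusted p = 0.395), with no filter (0.0562) and without LHFD_SOL 3 or 4 or LHFD_PEM 1, 3 or 4 (adjusted p from 0.052 to 0.116). In the test of the difference between the muscles' diet effects, none of these factors was called.

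Of 7 TALE homeobox factors, the family of MEIS1, 1 was higher and 2 lower in SOL. PKNOX2 was higher, at 45.3 ± 4.54 against 32.6 ± 3.35 (0.46, adjusted p = 0.0166), and was not called without CONT_SOL 1 (0.41, adjusted p = 0.0524). PBX3 was lower by a small margin, at 3.11 ± 0.193 against 3.89 ± 0.380 (-0.25, adjusted p = 0.0377), a call lost in 10 of 31 alternatives, among them equal sums of the nuclear genes (-0.14, adjusted p = 0.237), a fit of the 8 libraries alone (0.0759), CONT_PEM 2 and LHFD_PEM 1 both left out (-0.21, adjusted p = 0.0976) and CONT_SOL 2, 3 or 4 or CONT_PEM 1, 2 or 4 left out (adjusted p from 0.0501 to 0.0962). PBX4 was at -0.22 (adjusted p = 0.0999), and was called without CONT_SOL 1 (-0.28, adjusted p = 0.0489) and after quantile normalization (-0.50, adjusted p = 0.00175). Under SHFD, PBX3 was lower in SOL at -0.36 (adjusted p = 0.00349) and PKNOX2 was at 0.34 (adjusted p = 0.0757), called without SHFD_PEM 1 (0.47, adjusted p = 0.0165), after quantile normalization (0.0191) and with equal sums of the nuclear genes (0.0367). Under LHFD, PBX3 was at -0.20 (adjusted p = 0.102), called after quantile normalization (-0.41, adjusted p = 0.000469). PKNOX2 was higher in SOL under LHFD at 0.41 (adjusted p = 0.0351), a call lost with no filter (0.0535), after quantile normalization (0.0852), in a fit of the 8 libraries alone (0.0656) and without LHFD_SOL 1, 2 or 4 or LHFD_PEM 1, 2 or 3 (adjusted p from 0.0524 to 0.146). ARNT, the partner of SIM2, was at 31.9 ± 1.63 in SOL and 28.0 ± 3.53 in PEM (0.19, adjusted p = 0.327), so it was abundant in the muscle that lacked SIM2 too. No member of the list of ZIC and GLI factors could be tested, the 8 in the table lying under the filter.

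Both tested limb axis factors were higher in SOL. In PEM, EN2 held at most 0.185 FPKM and HAND2 at most 0.484. Both therefore passed the filter through SOL alone, and their count is no evidence about the list. EN2, an engrailed factor, stood at 6.19 ± 1.60 against 0.0648 ± 0.0820 (2.73, adjusted p = 1.15e-10) and HAND2, which marks the rear of the limb bud, at 6.15 ± 4.62 against 0.382 ± 0.125 (2.19, adjusted p = 0.000241). Of 12 somite and trunk factors 5 were higher and 4 lower. BARX2, at most 0.370 FPKM in PEM, and DACH2, at most 0.856, also passed through SOL alone. The count of higher genes is therefore no evidence about this list either. BARX2, a homeobox factor of muscle, stood at 20.5 ± 15.0 against 0.0859 ± 0.0763 (4.10, adjusted p = 1.33e-06), MEOX2, a somite factor needed for limb muscle, at 13.1 ± 3.01 against 4.13 ± 1.28 (1.47, adjusted p = 4.41e-06) and DACH2 at 1.86 ± 0.295 against 0.684 ± 0.167 (0.76, adjusted p = 1.83e-05). SIX2 went the opposite way, at 22.9 ± 3.98 in SOL against 114 ± 12.1 in PEM (-2.28, adjusted p = 8.22e-06).

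LBX1, a homeobox factor of migrating limb muscle precursors, was the 1 of the 28 tested list genes called in a diet comparison, LHFD against CONT in PEM, where 6.94% of all genes were called, so the count is no more than the background. It was 11.0 ± 3.02 under LHFD against 20.9 ± 2.32 under CONT, a fall of -0.90 (-1.36 to -0.44, adjusted p = 0.0165) with no overlap between the groups. It was not called without LHFD_PEM 2 (-0.71, adjusted p = 0.075), without CONT_PEM 3 (-0.84, adjusted p = 0.0574) or with the 8 libraries compared alone (adjusted p = 0.0842). Under SHFD in PEM LBX1 was 14.4 ± 2.18, with no overlap with CONT, and not called (-0.52, adjusted p = 0.305). In SOL it was 17.1 ± 1.14 under CONT, 14.1 ± 5.63 under SHFD and 10.4 ± 1.28 under LHFD, and not called. The fall is thus not shown to be particular to breast muscle.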

How the data were processed

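Muscle RNA was sequenced in 24 libraries, 4 for each of 6 groups of muscle and diet taken from the sample labels. The authors deposited FPKM per gene and library. The labels' protocols name fastp for read trimming, HISAT2 for mapping to GRCg6a and StringTie v1.3.3b for quantification. Cufflinks and DESeq2 appear in the submitters' processing notes as well, without a role. FPKM are shares of a library, so abundant genes that rise lower the rest. Genes of the mitochondrial genome took 20.6 to 27.0% of the FPKM in SOL libraries and 10.4 to 17.3% in PEM libraries. No counts were used here, the depth per library is unknown, and the precision of low values is known only from the spread between libraries.

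From these values log2(FPKM + 1) was tested in R 4.3.3 with limma 3.58.1 and its variance trend, over 10944 genes of at least 1 FPKM in at least 4 libraries. A single model with a mean for each of the 6 groups (18 residual degrees of freedom) gave 11 comparisons, namely SOL against PEM within a diet, diets within a muscle, and SOL minus PEM in the effect of SHFD and of LHFD. Tests were two-sided, and p-values were adjusted by Benjamini-Hochberg over all genes tested, with a threshold of 0.05. The fit was tested on simulated data. Relations among 12 SOL libraries were tested by permutation with 100000 resamples.

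The members and the gene lists were chosen with earlier results of these data known. The text names the 7 members, up to 4 tested genes of each list by the smallest p between muscles under CONT, list genes called in a diet comparison, and 3 genes of like pattern for each member. Neighbours come from RefSeq (GRCg7b), in which all 7 members were found by symbol. No coordinates or sequences are given, and some genes that the rule would name are not reported here. Alternatives were a pseudocount of 0.1, no filter, quantile normalization, an equal nuclear-encoded sum, only the groups compared, the replicate number as a block, and leaving out each library in turn or CONT_PEM 2 with LHFD_PEM 1. The readings of TBX4, TBX5 and EN1, of neighbours and of fibre markers, and the alternatives for the other factors by name (in the high-fat diets for those called in some diets and not in others), were added after seeing the data.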

Additional observations from a re-analysis of the deposited data

Results flagged for a closer look

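In 4 of 42 groups of a member and 4 libraries, 1 library lay so far from the other 3 that its gap to them passed the 95% limit of Dixon's test, as chance does in about 1 in 20 groups. For PITX1, SHFD_SOL 4 held 8.14 FPKM against 0.648 to 1.89 in the other 3 libraries. LHFD_SOL 4 held 4.19 FPKM of PITX1 against 1.35 to 1.67. For ZIC1, LHFD_SOL 1 held 3.32 FPKM against 2.08 to 2.17. For SIM2, CONT_SOL 3 held 0.354 FPKM against 0.108 to 0.139, all far below the PEM level. Of these 4 values, 3 come from the 3 SOL libraries with the highest slow fibre marker sums, 23205 to 38726 FPKM, and the part of fibre content in them was not tested. LHFD_SOL 1, with a slow sum of 8427, is not among them.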

How the results depend on the processing

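Of the 21 muscle differences of the members, 20 kept their direction and their call under all 31 alternatives, and that of TBX15 under SHFD was called under 8 of them. Same-numbered PEM and SOL libraries of a diet deviated together in 7 of 12 pairs (correlation over 0.1, range -0.119 to 0.362), with a median of 0.14, against 3 of 36 pairs with different numbers and a median of -0.0678. Deviations from a group mean cancel within the group, so high same-numbered correlations lower those of other pairs, and these medians are not independent. Of 24 libraries, 10 correlated best with their own number, a count that averages over the other diets too. Same-numbered libraries of different diets had a median of -0.0188. The likeness within a diet is a hint of shared birds from the data. The labels do not say that a number marks a bird, and not every pair was over 0.1, so the block was kept as an alternative. That block joins a number across diets, which were fed to different birds. It therefore does not model the pairing of PEM and SOL within a bird. With the replicate number as a block, TBX15 was called between muscles under SHFD (adjusted p = 0.0424) and for LHFD against CONT in SOL (1.31, adjusted p = 0.0467).

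Counts of members called higher were 0 as reported and 1 (TBX15) for LHFD against CONT in SOL with the block, with only the groups compared and without CONT_PEM 2 and LHFD_PEM 1, and 1 for LHFD against SHFD in SOL with the last 2 of these settings. For LHFD against CONT in PEM the count was 1 without both libraries. Leaving out 1 library gave 0 to 1 for each of these counts and for members lower in SHFD against CONT in SOL. With no filter, 18, 15 and 14 of the other patterning factors were higher in SOL under CONT, SHFD and LHFD, 13 lower under SHFD and 8 lower under LHFD, because more genes were tested. After quantile normalization 5 were higher under LHFD, and the cause was not tested.

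Some values changed sign, and none of them was called; the cause was not tested. Quantile normalization gave -0.014 for ZIC4 in LHFD against SHFD in PEM, 0.13 for PITX1 in SHFD against CONT in SOL, 0.083 for MEIS1 in LHFD against CONT in SOL, 0.022 for PITX1 in the SHFD effect, SOL minus PEM, and -0.030 for MGA between muscles under CONT. With equal sums of the nuclear genes TBX18 between muscles under LHFD was 0.016. A pseudocount of 0.1 gave -0.019 for SIM2 in LHFD against CONT in SOL. Without CONT_PEM 2 and LHFD_PEM 1, ZIC4 in LHFD against SHFD in PEM was -0.028 and TBX1 in LHFD against CONT in PEM 0.060.

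Leaving out 1 library gave the following lowest and highest values where the sign changed. In PEM, SHFD against CONT ran from -0.035 to 0.011 for ZIC1 and from -0.041 to 0.070 for ZIC4. LHFD against CONT ran from -0.13 to 0.076 for TBX1, from -0.021 to 0.023 for ZIC1 and from -0.018 to 0.072 for ZIC4. LHFD against SHFD ran from -0.065 to 0.064 for PITX1, from -0.26 to 0.43 for TBX15, from -0.00039 to 0.028 for ZIC1, from -0.048 to 0.073 for ZIC4 and from -0.17 to 0.00066 for SIM2. In SOL, SHFD against CONT ran from -0.51 to 0.31 for PITX1, from -0.036 to 0.27 for TBX15 and from -0.040 to 0.26 for SIM2. LHFD against CONT ran from -0.44 to 0.068 for PITX1, from -0.099 to 0.072 for MEIS1 and from -0.059 to 0.089 for SIM2. LHFD against SHFD ran from -0.49 to 0.34 for PITX1, from -0.24 to 0.071 for ZIC1, from -0.080 to 0.30 for ZIC4 and from -0.25 to 0.054 for SIM2. The SHFD effect, SOL minus PEM, ran from -0.60 to 0.22 for PITX1 and from -0.31 to 0.0035 for ZIC1. TBX18: SOL against PEM, LHFD, ran from -0.35 to 0.19.

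The depth is unknown, so the precision of values near 0 is known only from the scatter among 4 libraries. Diet differences of PITX1, TBX1, ZIC1 and ZIC4 in PEM and of SIM2 in SOL compare groups whose means all lie under 1 FPKM.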
